A study of Mus musculus with 3 samples.

Results

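Growth-plate chondrocytes are the cartilage cells whose stacked columns lengthen a long bone. They were picked out by transcript counts in single-cell RNA sequencing of long bone stroma from mice aged 3 weeks. A cell was taken as a growth-plate chondrocyte when it held at least 2 unique molecular identifiers (UMIs) of *Acan* and at least 3 of *Matn3* plus *Col9a1*. It also had to hold under 5 UMIs of each of 3 sets of genes. These sets were *Prg4* plus *Cilp*, *Efemp1* plus *Sfrp5* plus *Chil1*, and the cell cycle genes *Top2a*, *Mki67*, *Birc5*, *Cdk1* and *Ccnb2*. At most 1 UMI of *Pecam1* plus *Cdh5* was allowed. The rule took 987 of 15628 cells that passed the quality filters. They were 31 of 2382 cells in metaphyseal replicate 1, 29 of 2004 in metaphyseal replicate 2 and 927 of 11242 in the *Pdgfra-GFP* library.

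The metaphyseal replicates came from untreated males labelled C57BL/6 and named C57BL/6J in the paper. Their metaphysis, the spongy bone below the growth plate, was cut out. It was depleted of cells of the haematopoietic lineages and of CD45+ and CD117+ cells. The *Pdgfra-GFP* library came from untreated males, also labelled C57BL/6, that carried a nuclear GFP (H2B-GFP) knocked into 1 *Pdgfra* allele, so that this gene's promoter drives the reporter. Its cells were sorted as GFP+ from the metaphysis and epiphysis of femur and tibia. The 3 libraries held 25243314, 22082735 and 91747759 UMIs. The sources used here do not say whether the metaphyseal replicates came from separate animals, so their spread may be technical. Region, sort and reporter allele changed with the library and cannot be told apart in any comparison of the *Pdgfra-GFP* with the metaphyseal chondrocytes. The minimum number of genes per cell, 1500 in the metaphyseal and 1000 in the *Pdgfra-GFP* library, differed too.

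In a growth plate, resting chondrocytes supply proliferating columns, which leave the cell cycle as prehypertrophic cells and then swell into hypertrophic chondrocytes. Resting cells make PTHrP (*Pthlh*) and prehypertrophic cells make Indian hedgehog (*Ihh*), and the 2 signals form a feedback loop that sets the pace of this sequence. The matrix changes on the way, from type II collagen and aggrecan to type X collagen (*Col10a1*), which marks hypertrophy and precedes the invasion of vessels and the replacement of cartilage by bone.

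Summed over the selected cells, all 5 markers of the label stood higher than in the other cells of every library. *Col2a1*, the main fibrillar collagen of cartilage, stood at 37053 and 44946 CPM, the UMIs of a gene scaled to the same total in every sum of cells, in the metaphyseal chondrocytes and at 56353 CPM in the *Pdgfra-GFP* chondrocytes, and at 405, 601 and 4851 CPM in all other cells of the same libraries. *Acan*, which encodes the proteoglycan aggrecan, stood at 3940, 3958 and 3110 CPM against 47.4, 43.9 and 234 CPM. *Sox9*, the transcription factor that sets chondrocyte identity, stood at 457, 671 and 428 CPM against 22.4, 17.0 and 66.4 CPM. A *Sox9* UMI was found in 45.2%, 69.0% and 87.1% of the selected cells. *Matn3* and *Col9a1*, a matrilin and a collagen IX chain, were over 10 times as high in the chondrocytes of each library. Since the rule used *Acan*, *Matn3* and *Col9a1*, and every gene of a cell goes with them, these are descriptions with no test. The other cells include the chondrocytes that failed an exclusion, and more of them in the *Pdgfra-GFP* library. The rule asks for no gene found only in the growth plate, and the sorted tissue included the epiphysis, so the *Pdgfra-GFP* members may include other epiphyseal chondrocytes. Such cells cannot be told apart here from growth-plate cells without *Col10a1*, and every difference between the libraries is subject to this.

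The cells at the edge of the rule were as follows. In the *Pdgfra-GFP* library, 7 members with exactly 2 *Acan* UMIs had a median of 125 *Col2a1* UMIs of 5158 in all, and 9 cells just outside with 1 *Acan* UMI had a median of 27 of 4674. The 23 members with exactly 3 UMIs of *Matn3* plus *Col9a1* had a median of 26 *Col2a1* UMIs of 6643 and the 25 cells just outside a median of 12 of 7407. The median member of that library held 20 *Acan* UMIs. Chondrocytes were deeper in metaphyseal replicate 2, with a median of 21031 UMIs, than in replicate 1 with 10800 and the *Pdgfra-GFP* library with 8980. They made up 1.30% of cells in metaphyseal replicate 1 (exact 95% binomial interval 0.886 to 1.84%), 1.45% in replicate 2 (0.971 to 2.07%) and 8.25% in the *Pdgfra-GFP* library (7.74 to 8.77%). The intervals cover counting error only, and the depletion and the GFP sort can both set such shares. No chondrocyte barcode was shared between libraries. Scrublet called 31 chondrocytes of the *Pdgfra-GFP* library doublets and none of the metaphyseal ones, and they were kept.

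Cartilage matrix genes led the difference between the chondrocytes and the other cells. Of 3884 genes at 20 CPM or more in the chondrocytes of all 3 libraries, 280 (7.21%) were at least 2-fold higher in the chondrocytes than in the other cells of every library, while the median gene differed by -0.06, -0.03 and -0.06 on the log2 scale. All 8 cartilage collagens were among them, as were 14 of 15 proteoglycans and small matrix proteins, counts that include the rule's own *Col9a1*, *Acan* and *Matn3*. The genes of sulfation and glycosaminoglycan synthesis, which load aggrecan with its charged chains, had 5 of 7. By contrast, 2 of 13 genes of collagen folding and secretion were included: *Serpinh1*, the collagen chaperone HSP47, stood at 2536, 2203 and 2890 CPM in the chondrocytes and at 2351, 2263 and 2936 CPM in the other cells. Hypoxia and glycolysis genes had 5 of 9, with lactate dehydrogenase A (*Ldha*) at 666, 614 and 1311 CPM against 280, 255 and 501 CPM. Of the transcription factors 4 of 9 passed. The IGF system (0 of 3) and the metalloproteinases and their inhibitors (0 of 6) had none.

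Genes that the rule did not name, ranked by the smallest of the 3 library differences, were headed by *Ihh* and *Col10a1*. *Ihh* stood at 185, 140 and 195 CPM in the chondrocytes against 0.588, 0.880 and 2.38 CPM in the other cells. *Col10a1* stood at 19064, 15830 and 2169 CPM against 95.7, 81.5 and 40.7 CPM. *Matn1* (matrilin 1), *Hapln1* (the link protein that ties aggrecan to hyaluronan), *Col9a3*, *Col9a2*, *Ucma* (a vitamin K dependent cartilage protein) and *Epyc* (the small proteoglycan epiphycan) followed with *Col2a1* itself. The list also held genes outside the cartilage matrix. *Ppa1*, an inorganic pyrophosphatase, stood at 1217, 2341 and 2066 CPM against 92.1, 82.2 and 148 CPM. *Fxyd2*, a regulator of the sodium pump, stood at 716, 762 and 1491 CPM against 10.4, 8.73 and 80.5 CPM. *C1qtnf3*, *Fxyd3*, *Arsi* and *Smim5* completed the first 15.

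Markers of most other cell types summed to less in the chondrocytes than in the other cells, except tendon and muscle genes and, in metaphyseal replicate 1, erythroid genes. The 5 endothelial markers summed to 18.0, 20.5 and 8.92 CPM, against 2863, 2536 and 183 CPM in the other cells, and *Egfl7* was the most abundant of them. The 8 haematopoietic markers summed to 33.8, 58.2 and 126 CPM (other cells 9927, 14063 and 4509 CPM) with *S100a9* highest, and *Ptprc* and *C1qa* were at 0 in the metaphyseal chondrocytes. The 5 septoclast markers, of cells that resorb cartilage at the bone border, summed to 49.5, 78.7 and 112 CPM (other cells 216, 243 and 612 CPM) with *Fabp5* highest, and *Sstr2* and *Otos* were at 0 in the metaphyseal chondrocytes. The 4 marrow stroma markers summed to 56.3, 42.8 and 614 CPM (other cells 7016, 7686 and 8538 CPM) with *Cxcl12* highest. The 4 tendon and muscle markers summed to 36.0, 41.1 and 190 CPM with *Tnnt3* highest, against 14.1, 9.99 and 123 CPM in the other cells. Of the genes behind the sort, *Pdgfra* stood at 4.50 and 3.42 CPM in the metaphyseal and 7.98 CPM in the *Pdgfra-GFP* chondrocytes, below the 52.6 CPM of the other cells of the sorted library. The H2B-GFP transcript stood at 14.8 CPM in the sorted chondrocytes against 109 CPM in the other cells of that library.

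Osteoblast and erythroid genes were less even. The 6 osteoblast markers summed to 6645, 493 and 14478 CPM in the chondrocytes, with *Col1a1* highest, against 45012, 47658 and 93250 CPM in the other cells. In metaphyseal replicate 1, 1 cell held 1869 of the 1940 *Col1a1* UMIs, 11.1% of its UMIs were mitochondrial, and without it *Col1a1* stood at 164 CPM. The 5 erythroid markers summed to 13500, 110 and 2616 CPM, against 5490, 5832 and 4403 CPM in the other cells, and 1 cell of the same replicate held 3235 of the 3249 UMIs of *Hbb-bs*, a haemoglobin chain. RNA outside cells was also present: barcodes with under 100 UMIs held 8.51%, 9.91% and 7.24% of all UMIs, and in the *Pdgfra-GFP* library these barcodes together had 23896 CPM of *Bglap* (osteocalcin) and 6880 CPM of *Col2a1*. Of the endothelial cells of that library (3 or more UMIs of *Pecam1* plus *Cdh5*), 69.2% held a *Col2a1* UMI and 59.5% a UMI of *Spp1*, after every cell was thinned to 3000 UMIs.

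The chondrocytes of the 3 libraries fell into different parts of the *Col10a1* scale. Each cell was thinned at random to 3000 UMIs, which left out 42 shallower cells of the *Pdgfra-GFP* library, and put in 1 of 3 ranges. In metaphyseal replicate 1, 10 cells held no *Col10a1* UMI, 0 held 1 to 9 and 21 held 10 or more. In replicate 2, the numbers were 15, 2 and 12. In the *Pdgfra-GFP* library, they were 788, 38 and 59. Cells with 10 or more therefore made up 67.7% (exact 95% interval 48.6 to 83.3%), 41.4% (23.5 to 61.1%) and 6.67% (5.11 to 8.52%) of the chondrocytes. The median cell of the upper range held 105, 110 and 66 *Col10a1* UMIs of 3000. With 2 libraries against 1, an exact permutation test of these shares cannot pass a threshold of 0.05, and none was run. A UMI of *Col10a1* was found in 67.7%, 48.3% and 11% of the thinned chondrocytes, and in 3.53%, 3.87% and 4.22% of the endothelial cells, which should lack the gene.

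**Figure D1:**
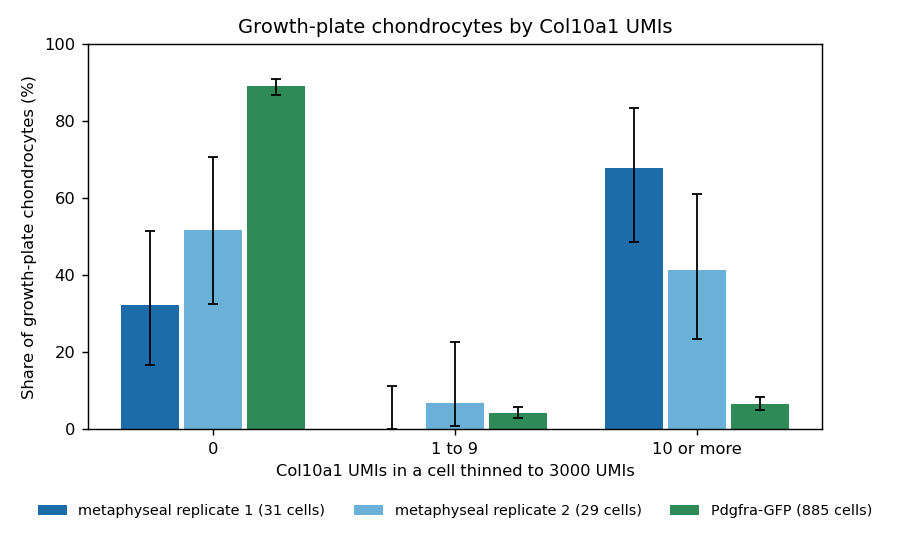
Share of growth-plate chondrocytes (%, bars) in 3 ranges of *Col10a1* UMIs after each cell was thinned to 3000 UMIs, for each library. Error bars are exact 95% binomial intervals and cover counting error only; the upper range held 67.7% and 41.4% of the metaphyseal and 6.67% of the *Pdgfra-GFP* chondrocytes.

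The rule caught most of the cells rich in *Col10a1*. Of all cells with at least 10 *Col10a1* UMIs per 3000, by scaling to 3000 UMIs, 21 of 25, 12 of 14 and 58 of 69 were chondrocytes by the rule. In the *Pdgfra-GFP* library, 6 of the rest had too few *Matn3* plus *Col9a1* UMIs, 2 too few *Acan* UMIs and 3 failed an exclusion. In the metaphyseal replicates, 2 and 2 carried endothelial UMIs and 2 of replicate 1 had too few *Matn3* plus *Col9a1* UMIs.

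After thinning, *Ucma* and high *Col10a1* did not meet in single cells of the metaphyseal replicates and met in some of the *Pdgfra-GFP* library. Over all UMIs of the metaphyseal *Col10a1*-high cells, *Ucma* stood at 26.8 CPM in replicate 1 and 11.2 CPM in replicate 2. It was thus low in those cells but not absent from them. In metaphyseal replicate 1, *Ucma* was seen in 10 cells, and in none of the 21 with 10 or more *Col10a1* UMIs. In replicate 2, it was seen in 14 cells and in none of the 12. In the *Pdgfra-GFP* library, where it was seen in 764 of 885 cells, 18 of the 59 *Col10a1*-high cells held a *Ucma* UMI and 3 held at least 5. A *Ucma* UMI was in 7.17% of the endothelial cells of that library. *Ihh* was found in 9 of 21, 4 of 12 and 38 of 59 *Col10a1*-high cells, and in 0 of 10, 2 of 15 and 33 of 788 cells with none. *Pthlh* was seen in 1, 0 and 85 cells, of which 0, 0 and 2 also held *Ihh*; in the endothelial cells of the *Pdgfra-GFP* library 1.69% held *Pthlh* and 0.422% *Ihh*.

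**Figure D2:**
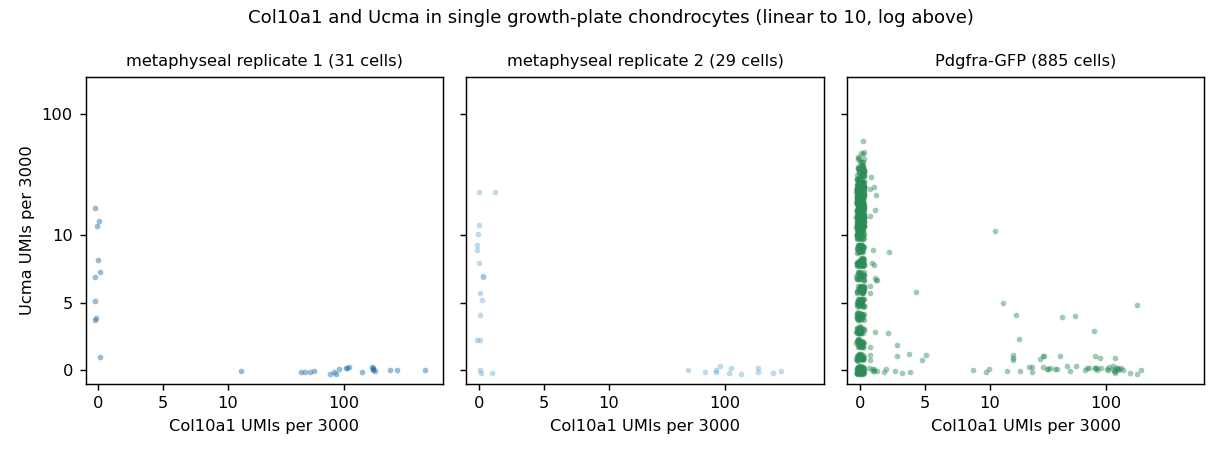
*Col10a1* UMIs (x) and *Ucma* UMIs (y) in single growth-plate chondrocytes thinned to 3000 UMIs, by library, on axes that are linear up to 10 and logarithmic above, with a small random offset so that points do not cover each other. In the metaphyseal replicates none of the 21 and 12 cells with 10 or more *Col10a1* UMIs held *Ucma*, and in the *Pdgfra-GFP* library 18 of 59 did.

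Several hypertrophy genes stood higher in the *Col10a1*-high cells. UMIs were summed over the cells of the lowest and the highest *Col10a1* range of each library. By median UMIs, the *Col10a1*-high cells were shallower than those without *Col10a1* in metaphyseal replicates 1 (8180 against 21112) and 2 (16006 against 25377). They were deeper in the *Pdgfra-GFP* library (14090 against 8978). Of 866 genes at 100 CPM or more in the highest range of all 3, 87 (10.0%) were at least 2-fold higher there than in the cells without *Col10a1* in all 3. Of 958 genes at 100 CPM or more in the lowest range, 51 (5.32%) were at least 2-fold lower in the *Col10a1*-high cells. *Col10a1*, which set the ranges, was left out of these counts. Of the 6 hypertrophic genes, which include it, 3 were among the 87 (*Mmp13*, *Spp1* and *Ibsp*), and of the 9 prehypertrophic genes 2. Not every listed gene reached 100 CPM. The hypertrophic *Vegfa* and the prehypertrophic *Runx2* stood at 76.4 and 95.8 CPM in the *Col10a1*-high cells of the *Pdgfra-GFP* library. *Pth1r*, from the prehypertrophic list, went from 608 to 791, from 996 to 61.5 and from 509 to 1942 CPM, and so differed in direction. Both ends were cut from 1 gene of the same cells, so the differences are descriptions. *Ihh* went from 13.6 to 353 CPM, from 103 to 252 CPM and from 31.3 to 1543 CPM in metaphyseal replicate 1, replicate 2 and the sorted library. *Mmp13*, the collagenase of late hypertrophic cartilage, went from 0 to 1532, from 5.58 to 5955 and from 89.0 to 1961 CPM. *Ibsp* (bone sialoprotein), which binds mineral, went from 0 to 3382, from 13.9 to 3439 and from 2423 to 10650 CPM, and *Spp1* (osteopontin) from 36.3 to 51560, from 2301 to 71921 and from 5810 to 23449 CPM. The range without *Col10a1* in the *Pdgfra-GFP* library thus already held *Spp1* and *Ibsp*. There 85.8% and 34% of cells had a UMI of them, beside 59.5% and 21.1% of the endothelial cells. In the *Col10a1*-high cells of that library the shares were 74.6% and 84.7%. The median cell held 4 *Spp1* UMIs of 3000 there and 5 in the cells without *Col10a1*. The highest counts were 533 and 201, so the summed rise of *Spp1* was not one of the median cell.

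The genes most above the cells without *Col10a1* included several with less known roles in cartilage. The 10 with the largest difference in the *Pdgfra-GFP* library, among genes with the same direction in both metaphyseal replicates, were *Pla2g10*, *Ffar4*, *Aldh1a3*, *Ihh*, *Matn1*, *Ddit4l*, *Steap4*, *Mmp13*, *Hpgd* and *Loxl4*. *Pla2g10* had only 10 and 1 UMIs in all chondrocytes of metaphyseal replicates 1 and 2. *Aldh1a3* had 24 UMIs in replicate 2, 54.2% of them from 1 cell. *Steap4*, a metalloreductase, went from 4.53 to 456, from 0 to 934 and from 10.0 to 266 CPM. *Loxl4*, a lysyl oxidase that crosslinks collagen, went from 4.53 to 491, from 36.3 to 621 and from 19.5 to 374 CPM. *Ddit4l*, an inhibitor of mTOR signalling, went from 4.53 to 822, from 8.37 to 1560 and from 24.5 to 680 CPM.

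*Matn1* went from 399 to 974, from 600 to 699 and from 22.7 to 895 CPM, so it reached a similar height at the upper end of all 3 libraries and differed at the lower end. The share of cells with a *Matn1* UMI told the same: 40.0%, 73.3% and 2.92% of the cells without *Col10a1*, and 76.2%, 75.0% and 55.9% of the *Col10a1*-high cells. The endothelial cells of the same libraries had 0.181%, 0.456% and 0.422%.

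Several genes of the cells without *Col10a1* stood lower in the *Col10a1*-high cells. Of the 6 resting zone genes, *Ucma* alone reached 100 CPM in the cells without *Col10a1* of all 3 libraries. It was among the 51. Below that limit, *Sfrp5*, which the rule capped, went from 40.8 to 0, from 19.5 to 0 and from 54.1 to 3.64 CPM. *Nt5e* went the other way in all 3 libraries, from 95.2 to 331, from 198 to 677 and from 76.9 to 115 CPM. *Ucma* went from 2979 to 26.8, from 2290 to 11.2 and from 4014 to 239 CPM. *Fmod* (fibromodulin, which binds collagen fibrils) went from 1805 to 40.2, from 1978 to 11.2 and from 2898 to 620 CPM. *Cnmd* (chondromodulin, which keeps cartilage free of vessels) went from 4743 to 733, from 3666 to 129 and from 3770 to 2073 CPM. *Sox9* went from 757 to 161, from 842 to 319 and from 442 to 273 CPM, and *Col2a1* from 57824 to 16591, from 62923 to 11765 and from 57460 to 47131 CPM. The last 3 differed less in the *Pdgfra-GFP* library than in either metaphyseal replicate, and missed the 2-fold limit there. The 10 genes most below, by the same ranking on the *Pdgfra-GFP* library, were *Cilp2*, *Notum*, *Hhip*, *Calml3*, *Ucma*, *Pla2g5*, *Pcolce*, *Tmem100*, *Bhlhe41* and *Mfap2*. Among them *Notum* removes the lipid from Wnt proteins, and *Hhip* binds hedgehog ligands at the cell surface.

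**Figure D3:**
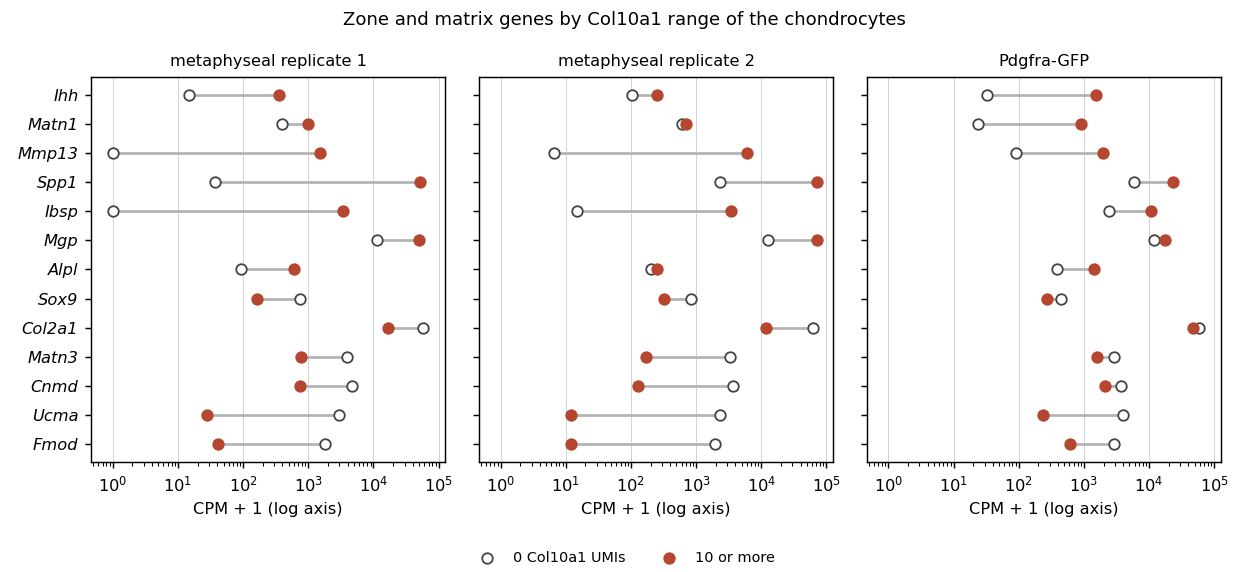
Level of 13 genes (CPM + 1, logarithmic axis) summed over growth-plate chondrocytes with 0 *Col10a1* UMIs (open) and with 10 or more (filled) per 3000 UMIs, in each library. *Ihh* to *Ibsp* lay further right in the *Col10a1*-high cells and *Ucma* and *Fmod* further left in all 3 libraries; *Col2a1* stood at 57824 and 16591 CPM in metaphyseal replicate 1 and at 57460 and 47131 CPM in the *Pdgfra-GFP* library.

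The proximal promoters of 4 of these genes, the 250 bases before the start of transcription, are shown for *Col10a1*, 2 genes higher in the *Col10a1*-high cells and 1 lower there. RUNX factors drive hypertrophy, so the letters TGTGGT and TGCGGT of a RUNX-type site were searched on both strands, and the TATA box letters TATAAA on the gene's strand. Matches are in capitals, and a match on the opposite strand reads as its reverse complement. The sequences are from RefSeq on GRCm38.p6. They lie at chr10:34389731-34389980 for *Col10a1*, chr9:7272264-7272513 for *Mmp13*, chr4:130944135-130944384 for *Matn1* and chr2:4975872-4976121 for *Ucma*, all on the plus strand.
Col10a1: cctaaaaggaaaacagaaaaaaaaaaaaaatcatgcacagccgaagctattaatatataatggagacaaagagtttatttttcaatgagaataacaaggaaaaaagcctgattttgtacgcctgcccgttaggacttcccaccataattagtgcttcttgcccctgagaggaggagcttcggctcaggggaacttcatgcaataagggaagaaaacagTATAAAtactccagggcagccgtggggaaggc
Mmp13: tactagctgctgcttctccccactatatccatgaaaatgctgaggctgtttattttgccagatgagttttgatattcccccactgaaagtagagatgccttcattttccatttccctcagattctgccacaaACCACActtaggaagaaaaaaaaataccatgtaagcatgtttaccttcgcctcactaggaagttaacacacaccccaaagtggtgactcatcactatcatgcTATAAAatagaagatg
Matn1: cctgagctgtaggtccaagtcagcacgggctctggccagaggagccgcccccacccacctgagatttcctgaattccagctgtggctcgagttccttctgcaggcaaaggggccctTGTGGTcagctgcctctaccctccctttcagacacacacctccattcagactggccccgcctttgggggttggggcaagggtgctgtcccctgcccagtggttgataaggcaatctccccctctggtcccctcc
Ucma: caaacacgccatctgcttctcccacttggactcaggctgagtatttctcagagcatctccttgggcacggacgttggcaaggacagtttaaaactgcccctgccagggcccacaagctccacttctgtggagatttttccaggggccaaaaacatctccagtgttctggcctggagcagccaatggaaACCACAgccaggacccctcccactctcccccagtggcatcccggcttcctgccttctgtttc

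The first bases of the matches lay 32 bases before the start in *Col10a1* (TATAAA), 118 (RUNX-type, opposite strand) and 16 (TATAAA) in *Mmp13*, 134 (RUNX-type) in *Matn1* and 62 (RUNX-type, opposite strand) in *Ucma*. Neither RUNX-type word was in this window of *Col10a1*. RUNX-type words were in 17 of 85 promoters of the genes higher in the *Col10a1*-high range and in 11 of 55 of those lower, and in 18.6% of all 32851 promoters, so both sets were close to the whole. TATAAA on either strand was in 15.3%, 10.9% and 12.4% of the same 3 sets.

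Between the libraries, the chondrocytes differed in many genes. UMIs of the chondrocytes were summed per library and tested with edgeR's quasi-likelihood test. Of 6783 genes tested, 613 (9.04%) were higher and 481 (7.09%) lower in the *Pdgfra-GFP* than in the metaphyseal chondrocytes at an adjusted p under 0.05, and the median gene differed by -0.05 on the log2 scale. The *Pdgfra-GFP* library is single, so its spread is assumed to be that of the metaphyseal pair. DESeq2's Wald test called 248 genes, of which 242 were among the 1094. With 1500 genes per cell required in all libraries, 1093 genes were called and 1078 were shared.

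*Col10a1* differed most among the cartilage collagens. It stood at 19064 and 15830 CPM in the metaphyseal and 2169 CPM in the *Pdgfra-GFP* chondrocytes, a log2 fold change of -2.86 ± 0.19 (SE; edgeR adjusted p = 2.77e-48). The other 7 differed less: *Col2a1* was 0.61 ± 0.10 higher (adjusted p = 6.41e-08; lost with DESeq2, and 0.012 with an adjusted p of 0.989 within the cells without *Col10a1*) and the 6 chains of collagens IX, XI and XXVII passed in neither direction, at fold changes between -0.21 and 0.62. The median of the 8 was -0.03. *Col9a1*, one of the 6 chains, was used by the rule, so its value is a description. Among the 6 hypertrophic genes, 4 were lower (*Col10a1*, *Spp1*, *Mmp13* and *Vegfa*), 2 higher (*Ibsp* and *Alpl*) and the median was -1.78. Within the *Col10a1*-high cells alone none of the 6 passed in either direction, and *Col10a1* itself set that range. The fold changes there were -1.22 (*Spp1*), -0.72 (*Mmp13*), -1.22 (*Vegfa*), 1.81 (*Ibsp*) and 1.87 (*Alpl*). The last 2 were at 1.71 and 1.09 over all chondrocytes. Over all chondrocytes DESeq2 called 4 lower and 1 higher. Of the 9 prehypertrophic genes only *Runx2*, the master factor of bone formation and hypertrophy, passed, at 81.0 and 113 against 44.8 CPM (-0.97 ± 0.36, adjusted p = 0.0475), and it passed no more with DESeq2. *Ihh* and its neighbour in the loop, the PTHrP receptor *Pth1r*, did not pass, at 0.42 ± 0.31 and 0.20 ± 0.31. Within the *Col10a1*-high cells, 3 of 8 prehypertrophic genes were higher, namely *Sp7* (2.31), *Panx3* (2.62) and *Fgfr3* (adjusted p = 0.00623), and within the cells without *Col10a1* 1 of 9 was. *Ihh* and *Pth1r* did not pass in either range, at -0.98 and -0.58 in the cells without *Col10a1* and at 2.50 and 2.28 in the *Col10a1*-high cells.

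Most resting zone genes stood higher in the *Pdgfra-GFP* chondrocytes as a whole. Of 6 tested, 5 were higher and 1, *Nt5e* (the ectonucleotidase CD73), lower, with a median of 2.52. One of the 5, *Sfrp5*, is a gene that the rule capped, so its value is a description. *Pthlh* stood at 11.3, 0 and 44.0 CPM (3.30 ± 0.54, adjusted p = 3.53e-08, lost with DESeq2), and only 6.13% of its *Pdgfra-GFP* UMIs came from 1 cell. *Clu* (clusterin, a secreted chaperone) stood at 51.8, 49.6 and 494 CPM (adjusted p = 3.85e-25), beside 536 CPM in barcodes under 100 UMIs and 666 CPM in the other cells of the *Pdgfra-GFP* library. *Ucma* stood at 1492 and 1679 against 3520 CPM (1.30 ± 0.25, adjusted p = 7.06e-06). With DESeq2 2 of the 6 remained higher. Within the cells without *Col10a1* 3 of the 6 were higher and none lower, with *Ucma*, *Sfrp5* and *Nt5e* no longer called, and within the *Col10a1*-high cells 1 of 3 was higher.

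Small matrix proteins moved in both directions. Of 15 proteoglycans and small matrix proteins, 8 were higher, 2 lower and 5 passed in neither direction, with a median of 0.58. The rule used *Acan* and *Matn3*, both among the 5, so their values are descriptions. DESeq2 called 5 higher and 1 lower. *Chad* (chondroadherin, which binds collagen II and integrins) stood at 374 and 828 against 4444 CPM, a fold change of 3.04 ± 0.26 (adjusted p = 4.79e-28). *Fmod*, *Mia*, *Ucma*, *Scrg1*, *Cytl1*, *Comp* and *Snorc* were the others. Of these, *Cytl1* stood at 137, 35.9 and 372 CPM, with 93.4% of its UMIs in metaphyseal replicate 1 from 1 cell and 667 CPM in barcodes under 100 UMIs of the *Pdgfra-GFP* library. *Matn1* was lower, at 689 and 608 against 115 CPM (-2.35 ± 0.36, adjusted p = 3.69e-09), as was *Hapln1* at 5596 and 4653 against 2424 CPM (-0.93 ± 0.23, adjusted p = 0.00099, lost with DESeq2). In sulfation, *Chst11* (a chondroitin 4-sulfotransferase) stood at 500 and 489 against 193 CPM (-1.21 ± 0.34, adjusted p = 0.00364) and *Csgalnact1*, which starts chondroitin chains, at 137 and 82.1 against 29.8 CPM (-1.72 ± 0.38, adjusted p = 0.00011). Both passed no more with DESeq2, and 1 of the 9 tested genes of the list was higher and 6 passed in neither direction.

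The same comparison was then made within the cells without *Col10a1*, since the libraries differed in how many cells stood at either end. This restriction was added after the first result was seen. There 294 of 4846 genes (6.07%) were higher and 216 (4.46%) lower in the *Pdgfra-GFP* chondrocytes, and the median gene differed by -0.03. The cells were 10, 15 and 788. *Matn1* was lower by more, at 399 and 600 against 22.7 CPM (-4.38, adjusted p = 4.23e-12), and *Hapln1* remained lower (-1.42, adjusted p = 0.00176), though neither passed within the *Col10a1*-high cells. *Epyc*, at -0.88 with an adjusted p of 0.050 over all chondrocytes, was at -1.58 here (adjusted p = 0.000552), and *Prelp* (a leucine-rich matrix protein) at -1.36 (adjusted p = 0.00344). Of the same 15 matrix genes 2 were now higher, *Chad* (2.85) and *Cytl1* (4.01), and 4 lower, with a median of 0.07. *Ucma* and *Fmod* no longer passed, at 0.69 and 0.70. Sulfation genes had 3 lower of 9, *Chst11* (-1.94), *Csgalnact1* (-2.33) and the sulfate transporter *Slc26a2* (-1.20), and 1 higher.

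**Figure D4:**
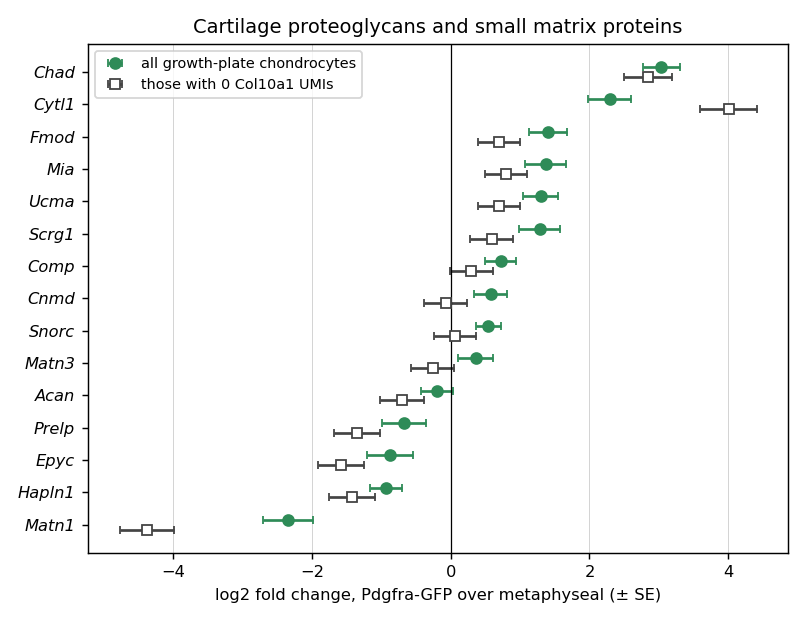
log2 fold change (x, ± SE from edgeR) of 15 cartilage proteoglycans and small matrix proteins, *Pdgfra-GFP* over metaphyseal chondrocytes, over all growth-plate chondrocytes (circles) and over those with 0 *Col10a1* UMIs (squares). *Chad* lay at 3.04 and 2.85 and *Matn1* at -2.35 and -4.38, while *Ucma* moved from 1.30 to 0.69.

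All 4 hypertrophic genes that could be tested within the cells without *Col10a1* were higher in the *Pdgfra-GFP* cells. *Ibsp* and *Alpl* were so over all chondrocytes too, and *Mmp13* and *Spp1* changed direction. *Mmp13* stood at 0 and 5.58 against 89.0 CPM (4.76, adjusted p = 2.06e-07), after -1.97 over all chondrocytes, and *Spp1* at 36.3 and 2301 against 5810 CPM (2.38, adjusted p = 0.00584), after -1.59. A UMI of *Mmp13* was in 14.2% of these *Pdgfra-GFP* chondrocytes and in 15.2% of the endothelial cells of the same library. Barcodes under 100 UMIs of the 3 libraries stood at 996, 1037 and 1049 CPM of *Mmp13* and at 6339, 5821 and 7824 CPM of *Spp1*. For *Ibsp* such barcodes stood at 2132, 1801 and 3346 CPM, and the cells without *Col10a1* at 0, 13.9 and 2423 CPM. For *Alpl* such barcodes stood at 239, 257 and 422 CPM, and the cells without *Col10a1* at 90.7, 204 and 389 CPM. Within the *Col10a1*-high cells, 67 of 3964 genes (1.69%) were higher and 43 (1.08%) lower. *Ucma* (3.74, adjusted p = 7.72e-05) and *Fmod* (4.67, adjusted p = 2.83e-06) were among the higher, at 239 and 620 CPM in the *Pdgfra-GFP* cells beside 663 and 731 CPM in barcodes under 100 UMIs, and *Matn1*, at 0.25 (adjusted p = 0.932), was not called. *Hapln1* and *Chst11* stood at 0.60 and 1.02 there and were not called either.

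Of all genes tested 9.04% were higher and 7.09% lower, and the growth factor lists can be read beside this. Of 7 tested genes of the IGF system, 5 were higher in the *Pdgfra-GFP* chondrocytes and none lower, with a median of 2.71, and 3 were with DESeq2. *Igfbp7* stood at 601 and 467 against 4008 CPM (3.06 ± 0.27, adjusted p = 5.12e-27), beside 2696 CPM in barcodes under 100 UMIs, and *Igfbp4* at 29.3 and 30.8 against 233 CPM, beside 1957 CPM. *Igf1*, the ligand, stood at 11.3 and 12.0 against 46.9 CPM beside 263 CPM. Of 7 Wnt genes 3 were higher (*Wif1*, *Dkk1* and *Sfrp5*, all antagonists; 0 with DESeq2) and none lower, *Sfrp5* being capped by the rule. Of 8 BMP genes 2 were lower, the ligands *Bmp2* (87.8 and 272 against 52.3 CPM, adjusted p = 3.38e-05) and *Bmp6* (69.8 and 113 against 21.4 CPM, adjusted p = 9.63e-06), and 2 higher. In replicate 1, 82.1% of *Bmp2* UMIs came from 1 cell, and within the cells without *Col10a1* its fold change was 0.076. Of 7 hedgehog and PTHrP genes, *Pthlh* and *Hhip* were higher and the other 5 passed in neither direction. Of 4 FGF genes *Fgfr2* was higher. *Fgfr3*, the brake on chondrocyte growth, stood at 128 and 132 against 148 CPM (0.34 ± 0.32), and at -0.47 in the cells without *Col10a1* (adjusted p = 0.412). As given above, it was higher in the *Col10a1*-high cells. Of 11 transcription factors 1 was higher (*Foxa3*) and 1 lower (*Runx2*), with *Sox9* at -0.25 ± 0.32. With DESeq2 no gene of the FGF, hedgehog and PTHrP or transcription factor lists passed, and of the BMP list 1 was higher and 1 lower.

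Other functional lists were mixed. Among 14 genes of collagen folding and secretion 4 were higher (*P4ha2*, *Xbp1*, *Creld2* and *Sdf2l1*) and none lower, with a median of 0.49, and none passed with DESeq2. Of 11 hypoxia and glycolysis genes, *Ldha*, *Aldoa*, *Pfkl* and *Bnip3* were higher and *Vegfa* and *Hk2* lower; DESeq2 left 1 higher and 1 lower, and the cells without *Col10a1* had 0 higher and 1 lower of 10. *Vegfa*, which draws vessels into hypertrophic cartilage, stood at 101 and 85.6 against 17.5 CPM (-2.26 ± 0.39, adjusted p = 3.07e-07). Of 9 metalloproteinases and inhibitors, *Mmp2* and *Timp3* were higher and *Mmp13* and *Adamts1* lower. With DESeq2 these were 0 and 1, and in the cells without *Col10a1* 2 of 7 were higher and 0 lower. Of 12 mineralization genes 4 were higher and 5 lower, and within the cells without *Col10a1* 6 of 8 were higher and 0 lower. DESeq2 called 3 in each direction. *Mgp*, the matrix Gla protein that inhibits mineral, stood at 31198 and 32843 against 12270 CPM (-1.23 ± 0.13, adjusted p = 9.84e-18), and at 11504, 12802 and 11984 CPM in the cells without *Col10a1*.

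Immediate early genes were mostly lower over all chondrocytes. Of 14 immediate early and heat shock genes, 13 were lower in the *Pdgfra-GFP* chondrocytes, none was higher and the median was -2.06. *Hspa1a*, at 203, 406 and 325 CPM, was the exception. *Jun* stood at 3175 and 2471 against 504 CPM (-2.34 ± 0.30, adjusted p = 1.43e-12) and *Atf3*, a stress-induced factor, at 1017 and 739 against 69.6 CPM (-3.51 ± 0.38, adjusted p = 1.43e-17). DESeq2 called 12 of the 14 lower. Within the cells without *Col10a1* 13 were lower (median -2.30), and within the *Col10a1*-high cells 1 of 13 was (median -1.42). The other cells of the same libraries went the same way, with the 14 genes summing to 6729, 6073 and 2346 CPM there and to 15457, 14582 and 4197 CPM in the chondrocytes. Mitochondrial transcripts had 6 lower and 1 higher of 12. With DESeq2 3 were lower and 0 higher. Within the cells without *Col10a1* 5 of 10 were lower, and within the *Col10a1*-high cells 0 of 9 passed, with a median of -0.87. They made up a median of 2.0% and 2.13% of UMIs in the metaphyseal and 0.923% in the *Pdgfra-GFP* chondrocytes. Their part in the other differences was not tested, and neither was the part of handling in the immediate early and mitochondrial differences.

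The named extremes of the comparison are given with the levels outside chondrocytes. Among genes with a mean of 50 CPM or more, the largest rises in the *Pdgfra-GFP* chondrocytes were *Col3a1* (7.08), *Omd* (5.99), *Cilp2* (5.72), *Bglap* (5.46), *Wif1* (5.20), *Bglap2* (5.18), *Cxcl12* (4.18), *Notum* (3.98), *Car8* (3.44) and *Gpx3* (3.44). *Bglap* stood at 15.8, 63.3 and 1618 CPM, beside 23896 CPM in barcodes under 100 UMIs, and 27.4% of its *Pdgfra-GFP* UMIs were in 1 cell. *Col3a1*, a fibroblast collagen, stood at 4.50, 3.42 and 479 CPM beside 725 CPM, and *Wif1* at 36.0, 6.85 and 664 CPM beside 543 CPM. *Cxcl12* stood at 27.0 and 30.8 CPM in the metaphyseal chondrocytes beside 5678 and 5494 CPM in such barcodes of the same libraries. *Bglap2* stood there at 13.5 and 25.7 CPM beside 1547 and 2420 CPM, and *Gpx3* at 110 and 202 CPM beside 452 and 546 CPM. In the *Pdgfra-GFP* library, *Cxcl12* stood at 475 CPM in the chondrocytes beside 5546 CPM in such barcodes. In that library, *Bglap2* stood at 657 CPM beside 9770 CPM and *Gpx3* at 1530 CPM beside 1449 CPM. *Cilp2* and *Notum* stood well above such barcodes, at 329 against 91.2 CPM and at 165 against 41.6 CPM, as did *Car8* at 170.5 against 41.7 CPM, and *Omd* (osteomodulin) did at 622 against 330 CPM. In that library, *Cilp2* and *Notum* stood at 366 and 190 CPM in the cells without *Col10a1* and at 4.85 and 2.43 CPM in the *Col10a1*-high cells. The osteoblast list had 5 higher and 1 lower of 6. The marrow stroma list had 2 higher of 3, the haematopoietic list 2 of 2, the tendon and muscle list 2 of 3, and neither of the 2 tested septoclast genes passed. No endothelial marker was abundant enough to test. Of the erythroid list 2 of 5 were lower, and without the 2 metaphyseal cells rich in haemoglobin or *Col1a1* 4 of 4 were higher. With DESeq2 the osteoblast list had 2 higher and 1 lower, the marrow stroma list 2 higher, the tendon and muscle list 1 higher, and the haematopoietic and erythroid lists none. The largest falls were *Mir6236*, *Ptgs2*, *AC160336.1*, *Tcim*, *Plk2*, *Arc*, *Gm42418*, *Hist1h1e*, *Dusp5* and *mt-Rnr1*. Of these, *mt-Rnr1* is a mitochondrial ribosomal RNA, and *Arc*, *Plk2*, *Dusp5* and *Ptgs2* are early response genes. All of these falls but that of *Arc* had the same direction in the other cells of the libraries. There *Mir6236* stood at 575 and 571 against 1.78 CPM and *Gm42418* at 15152 and 16713 against 627 CPM. *mt-Rnr1* stood there at 3394 and 3865 against 120 CPM and *Tcim* at 215 and 184 against 10.7 CPM. *Ptgs2*, the inducible cyclooxygenase, stood at 38.3 and 306 against 6.80 CPM (-4.53 ± 0.42). It stood at 0, 0 and 1.11 CPM in the cells without *Col10a1* and at 75.9, 973 and 56.998 CPM in the *Col10a1*-high cells. *Plk2* went from 4.53 to 183, from 5.58 to 828 and from 1.81 to 81.3 CPM. *Tcim* and *Dusp5* rose too, *Hist1h1e* fell, and *Arc* and *AC160336.1* differed in direction. Within the *Col10a1*-high cells *Ptgs2* was called lower, and *Plk2*, *Tcim* and *Dusp5* were not called. The part of the *Col10a1* ranges in these falls was not tested.

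**Figure D5:**
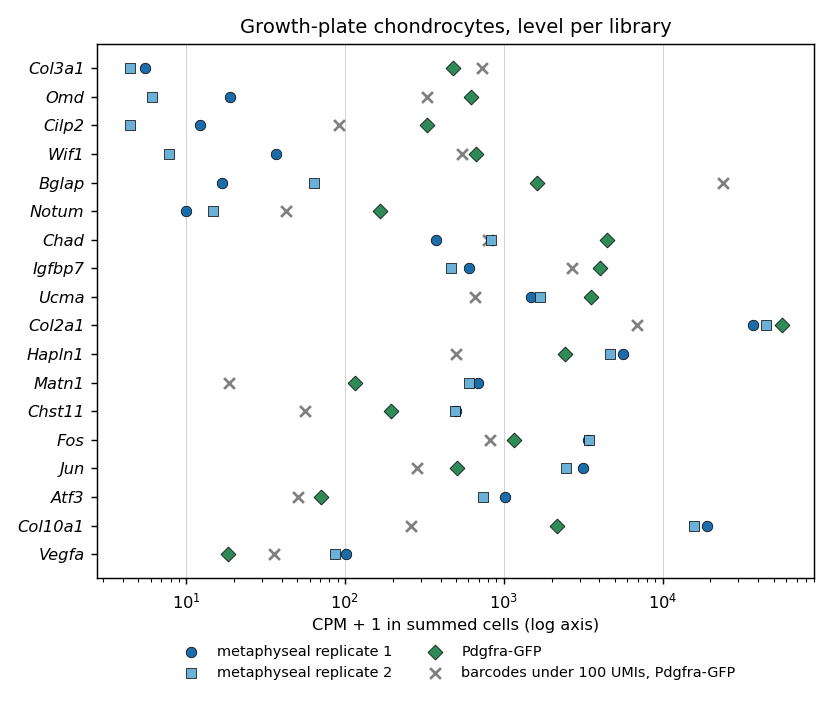
Level of 18 genes (CPM + 1, logarithmic axis) summed over the growth-plate chondrocytes of each library, with the level in barcodes under 100 UMIs of the *Pdgfra-GFP* library as crosses. *Matn1*, *Hapln1*, *Chst11*, the immediate early genes and *Col10a1* lay lower in the *Pdgfra-GFP* chondrocytes and *Chad* and *Igfbp7* higher; for *Bglap* the cross, at 23896 CPM, lay above all chondrocytes.

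Within the *Pdgfra-GFP* library, the chondrocytes could be set beside 3 related classes that met the *Acan* and *Matn3* plus *Col9a1* minimum but failed 1 exclusion. They were 253 cells with *Prg4* or *Cilp*, typical of the articular surface, 325 with *Efemp1*, *Sfrp5* or *Chil1*, and 86 cycling cells. Since the rule separates these classes, the differences are descriptions. *Ihh* and *Col10a1* stood higher in the growth-plate chondrocytes than in all 3. *Ihh* stood at 195 CPM against 0.561, 2.33 and 13.1 CPM, and *Col10a1* at 2169 CPM against 112, 98.2 and 101 CPM. The 788 members without *Col10a1* UMIs carried little of either, at 31.3 CPM of *Ihh* and 10.9 CPM of *Col10a1*. *Panx3*, a channel of prehypertrophic cells, stood at 176 CPM against 1.68, 6.66 and 104 CPM. Of 1449 genes at 100 CPM or more in either, 78 were at least 2-fold higher and 122 lower than in the *Prg4* or *Cilp* cells. *Cytl1*, a secreted cytokine-like cartilage protein, stood at 372 against 18014 CPM, and *Matn1* at 115 against 2.24 CPM. The *Efemp1*, *Sfrp5* or *Chil1* cells were nearer, with 29 higher and 43 lower of 1352, and *Clu* at 494 against 2717 CPM. Against the cycling cells, 43 were higher and 138 lower of 1505.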

How the data were processed

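UMI counts of 3 droplet libraries from mouse long bone were analysed. The counts were deposited by the authors as raw whole numbers for every gene and barcode, neither normalized nor limited to cells. Reads had been trimmed with fastp 0.20 and mapped with STAR 2.7.3a in its STARsolo mode, using mm10, Gencode M23 and the reporter's H2B-GFP sequence. Totals were 25243314, 22082735 and 91747759 UMIs.

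A cell needed 1500 or more genes (metaphyseal) or 1000 or more (*Pdgfra-GFP*), and no more than 15% of its UMIs mitochondrial and 30% ribosomal. This left 2382 of 2440, 2004 of 2045 and 11242 of 11412 barcodes past the gene minimum, and the study states 11242 cells for the sorted library. The authors' EmptyDrops step was not repeated. Scrublet (scanpy 1.11.5) marked doublets, which stayed in. Growth-plate chondrocytes were chosen by the UMI rule given in the report. The members and the gene lists were chosen with earlier results of these data known.

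UMIs were summed per library and class. Levels are CPM over all 55422 genes, and ratios are log2 of (CPM + 1). The sums were compared with edgeR 4.0.16 in R 4.3.3 (TMM, filterByExpr with min.count 10 and min.total.count 15, quasi-likelihood test, Benjamini-Hochberg, threshold 0.05, two-sided). The test was also run on simulated data, and the outcome is not given here. SE is the size of the log2 fold change divided by the square root of F. DESeq2 1.42.0 was an alternative. Shares came from cells thinned at random to 3000 UMIs, with exact 95% binomial intervals.

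Named genes were all genes of the lists (examples in the text), the 10 largest called changes in each direction at a mean of 50 CPM or more with no overlap between groups, the 15 genes most above other cells at 100 CPM or more, and the 10 in each direction with the largest *Col10a1*-high to *Col10a1*-free difference in the *Pdgfra-GFP* library and the same direction in the replicates. Alternatives changed the gene minimum, doublets, the rule, normalization, filter, depth, tool and range limits. Promoters came from RefSeq tables of GRCm38.p6, and 156 of 210 listed genes and 106 of 138 genes along *Col10a1* had one.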

Additional observations from a re-analysis of the deposited data

How the results depend on the processing

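No paired analysis was possible because the *Pdgfra-GFP* group has 1 library, whose label carries no replicate number. The 927 *Pdgfra-GFP* chondrocytes became 830 with 1500 genes required in all libraries, 896 without called doublets and 865 under a stricter rule, and the metaphyseal ones stayed at 31 and 29 or, under the last, 27 and 28. The count of 1094 genes called between *Pdgfra-GFP* and metaphyseal chondrocytes stayed within 1.5 times under DESeq2 size factors (1129), no filter on low counts (1211), the 3 other sets of cells (1093, 1087 and 1021) and without the 2 metaphyseal cells rich in haemoglobin or *Col1a1* (1131). It was 248 with DESeq2's Wald test, 273 with cells thinned to 3000 UMIs (1697 genes tested), 1950 in a joint fit with the other cells, 510 with only cells without *Col10a1* and 110 with only *Col10a1*-high cells; the last 2 and the removal of 2 cells were added after seeing the data. The share of calls that were higher in *Pdgfra-GFP* was 56.0%, 62.7% with size factors, 64.8% without the filter and 47.2% with the Wald test. Leaving out a metaphyseal replicate leaves 1 library against 1, so folds but no calls were computed; the joint fit was not repeated there.

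Of 3884 genes, the 280 at least 2-fold above other cells became 173 at 50 CPM or more, 121 at 4-fold and 311 to 329 when 1 library was left out. The share of *Pdgfra-GFP* chondrocytes with a *Col10a1* UMI was 16.5% in cells as deposited, against 11% after thinning. Genes along *Col10a1* numbered 77 to 97 higher and 44 to 68 lower under the other limits.

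Log2 fold changes that changed sign within the *Col10a1*-high cells included those of *Matn1* (0.25), *Hapln1* (0.60), *C1qtnf3* (1.36), *Ffar4* (0.13) and *Aldh1a3* (0.66). Those of *Fgfr2* (-0.38), *Chst11* (1.02), *Col1a1* (-1.54) and *Col1a2* (-0.18) did so too. So did some genes called neither there nor over all chondrocytes, such as *Epyc* (1.69), *Prelp* (2.01) and *Sox9* (0.38). Within the cells without *Col10a1*, changes of sign included those of *Smim5* (-0.12), *Mmp13* (4.76), *Spp1* (2.38), *Bmp2* (0.076) and *Mgp* (0.063). The haemoglobin genes *Hba-a1* (5.37), *Hba-a2* (5.39), *Hbb-bs* (5.35) and *Hbb-bt* (6.33) changed sign as well. Some genes called neither there nor over all chondrocytes did so too, such as *Ihh* (-0.98), *Pth1r* (-0.58) and *Fgfr3* (-0.47). Without the 2 cells, *Hba-a1* (5.14), *Hba-a2* (5.23), *Hbb-bs* (4.78) and *Hbb-bt* (5.61) turned, since 1 cell of replicate 1 held nearly all of their UMIs. Of 207 named genes tested, 88 moved by more than their SE without metaphyseal replicate 1, besides 3 counted as changing sign. Without replicate 2, 79 moved by more. For those 3, leaving out a replicate gave 0.23 (without replicate 1) and -2.21 (without replicate 2) for *Aldh1a3*. The folds were 4.18 and -2.54 for *Hbb-bs* and 5.46 and -3.02 for *Hbb-bt*. *Hba-a1* and *Hba-a2* were not among the 3. They stood at 579 and 426 CPM in the *Pdgfra-GFP* chondrocytes, while all 5 erythroid markers summed to 110 CPM in replicate 2. For the other genes the cause was not tested.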
